A study of Mus musculus with 8 samples.

Results

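Proteasome subunit genes were taken as all genes whose probe set on the array carries a single symbol made of Psma, Psmb, Psmc or Psmd and digits alone. The rule found 39 genes on 45 probe sets, out of 19938 genes measured, and each gene was read from its brightest probe set, by the average of all 8 arrays. Each array was hybridised with RNA from cultured mouse spermatogonial stem cells, the germ cells of the testis that renew themselves and supply spermatogenesis. In 3 arrays, the donors were 8 days old and culture had lasted 7 to 10 weeks (young short culture). In 3 arrays, donors of the same age had given cells that stayed in culture for 14 to 18 months (young long culture). In 2 arrays, the cells belonged to a line passed from testis to testis by serial transplantation, with a stated donor age of 1500 days, and were again cultured for 14 to 18 months (serial transplant). Donor age and transplantation cannot be told apart. Whether replicates came from separate donors or cultures is not stated, and a p-value here reflects the spread between arrays alone, which may be technical.

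The proteasome is the barrel-shaped protease that degrades ubiquitin-tagged proteins. Its core particle stacks rings of alpha subunits (Psma genes) around rings of beta subunits (Psmb genes), of which Psmb5, Psmb6 and Psmb7 carry the cutting sites. A regulatory particle caps the core, with a ring of ATPases (Psmc genes) that unfolds substrates and a base and lid of other subunits (Psmd genes) that bind ubiquitin and remove it. In cells exposed to interferon, Psmb8, Psmb9 and Psmb10 replace Psmb5, Psmb6 and Psmb7 in newly built cores, giving the immunoproteasome. In the male germ line, Psma8 takes the place of Psma7, and cores with Psma8 are known for their role in meiosis. The levels of subunits are set in part by Nfe2l1, a transcription factor that is released to the nucleus when proteasome activity falls short.

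Markers of the labelled cell type gave signals above the median. All 16 markers of undifferentiated spermatogonia, among them Gfra1, Ret and Zbtb16, averaged over 6.94 log2. That value is the median signal over all probe sets, below which signals were treated as dim. Of all 19938 genes, 10884 averaged above it, as did 17 of 19 fibroblast genes but only 2 of 14 genes of leukocytes and macrophages. Passing it does not by itself identify a cell type. Young short-culture replicate 2 stood apart, with a correlation of 0.990 and 0.991 to the other replicates of its group (0.996 between those) and an array weight of 0.328, the lowest of the 8. Array medians ran from 6.90 to 6.98. Precision is limited by how few arrays there are.

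A few start regions are shown, that of Psmb9 because Tap1 shares it, and those of Psmb5 and Psmb6 because they hold a match to a motif of proteasome gene control. Of the 39 members, 32 have start regions in the RefSeq table of GRCm38.p6 (34 windows of 300 bases, from 250 before to 50 after the annotated start); Psma8, Psmb1, Psmb2, Psmb7, Psmc3, Psmd3 and Psmd7 are not in it. Psmb9, which encodes the immunoproteasome subunit that replaces Psmb6, lies head to head with Tap1, a subunit of the pump that feeds peptides to class I antigen-presenting molecules. Their annotated starts are 226 bases apart on chromosome 17, and 275 bases belong to the windows of both. The Psmb9 window, chr17:34187281-34187580 on the minus strand, is given with the stretch from the Tap1 start to the Psmb9 start in capitals.
Psmb9: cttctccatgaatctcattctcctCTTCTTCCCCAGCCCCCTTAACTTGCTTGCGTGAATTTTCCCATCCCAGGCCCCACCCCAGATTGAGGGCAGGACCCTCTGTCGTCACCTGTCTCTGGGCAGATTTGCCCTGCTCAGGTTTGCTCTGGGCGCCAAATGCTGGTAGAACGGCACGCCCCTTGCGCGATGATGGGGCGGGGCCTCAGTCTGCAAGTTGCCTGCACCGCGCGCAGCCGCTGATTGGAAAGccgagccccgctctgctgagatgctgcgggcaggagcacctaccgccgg
The standard subunits Psmb5 and Psmb6 each hold 1 match to TGACNNNGC, the core of the element bound by Nfe2l1 and Nfe2l2 (both strands searched). It is capitalised in chr14:54617996-54618065 (minus strand), where it begins at -47 from the annotated start, and in chr11:70525307-70525376 (plus strand), where it begins at -9.
Psmb5: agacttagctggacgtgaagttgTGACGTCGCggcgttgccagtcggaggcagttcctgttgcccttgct
Psmb6: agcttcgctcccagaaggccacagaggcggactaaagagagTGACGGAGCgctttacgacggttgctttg
Matches to TGACNNNGC stood in 5 of the 34 member windows (14.7%) and in 12.4% of all 32851 windows of that length. CCAAT, searched on both strands, stood in 13 member windows (38.2%) against 37.4%. Each motif was counted on its own, whether or not it overlapped another. A match is a description of the letters, not of binding.

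Among young-donor cells, long culture was set against short culture, with donor age held the same. Psmd6, a subunit of the regulatory particle's lid, rose, and the other 38 members did not pass the test. In limma, at an adjusted p of 0.05, 12.8% of all genes were called, 6.1% as higher and 6.69% as lower after long culture (11.3% of probe sets). Among the 10884 genes above the median signal, 9.69% were higher and 8.25% lower. Of the members, 27 had a positive and 12 a negative change, with a median of 0.07 log2. Beside this, 43.2% of all genes had a positive change (median -0.04). Of the 10884 genes above the median signal, where 37 of the 39 members lie, 6154 had a positive change (median 0.04). The 95% interval of every member, 39 of 39, lay within a 1.5-fold change in either direction (0.58 log2), with a median reach of 0.25 to each side. That reach does not allow for the adjustment over all probe sets, and Psma1 (0.31) and Psmc6 (0.35) exceeded it without a call. Changes of such sizes can go undetected at this number of arrays. In bulk RNA, fewer cells of a type and less RNA per cell cannot be told apart. Fibroblast genes differed in the same comparison, with 14 of 19 lower and none higher. Their median deviation from the 8-array mean ran from 0.31 to 0.96 on the short-culture arrays and from -0.27 to -0.23 on the young long-culture arrays. Their part in the members' values was not tested.

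**Figure D1:**
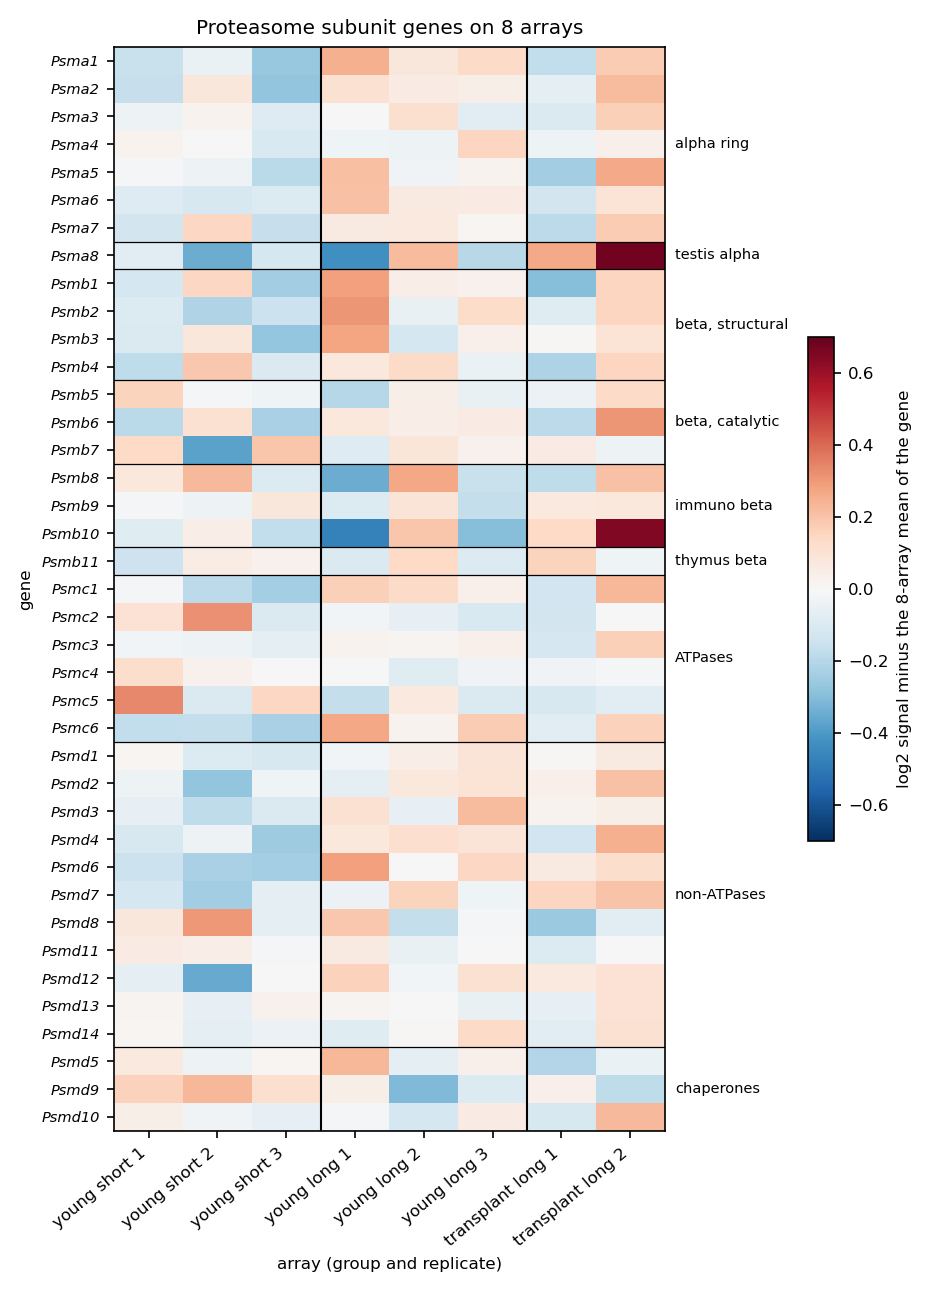
Heat map of the 39 proteasome subunit genes (rows, by role) on the 8 arrays (columns, by group), coloured by log2 signal minus the gene's mean over the 8 arrays. Most cells are pale; the darkest are Psma8 and Psmb10 on serial transplant replicate 2, and its column is redder than that of serial transplant replicate 1.

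Psmd6 read 10.52, 10.44 and 10.43 log2 on the young short-culture arrays, 10.95, 10.67 and 10.81 on the young long-culture arrays and 10.73 and 10.79 on the serial transplant arrays. Every long-culture array, of either donor, lay above every short-culture array. The rise in young-donor cells was 0.35 ± 0.10 (SE) log2, or 1.27-fold (n = 3 and 3; limma, adjusted p = 0.0482). The call was close to the threshold. The adjusted p was 0.0744, 0.0874 and 0.111 without young short-culture replicates 1, 2 and 3, 0.0665 without either serial transplant array, and 0.176 and 0.148 when young long-culture replicates 1 and 3 were left out. It was 0.0544 after quantile normalization and 0.0772 with the replicate number as a block. Just outside the threshold stood Psmc6, an ATPase of the regulatory particle, with 10.27, 10.28 and 10.22 on the short-culture arrays, 10.72, 10.47 and 10.62 on the young long-culture arrays, and 10.38 and 10.61 on the serial transplant arrays. The groups of young donors did not overlap, and the difference was 0.35 ± 0.11 (limma, adjusted p = 0.0566; 0.0430 with an intensity trend and 0.0169 with array weights).

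The alpha ring, the gate of the core, gave changes between 0.04 (Psma3) and 0.31 (Psma1), all 7 of them positive and none past the test. Psma2 (0.19), Psma4 (0.06), Psma5 (0.15), Psma6 (0.21) and Psma7 (0.10) lay between these. Psma1 read 10.44, 10.55 and 10.33 on the short-culture arrays and 10.85, 10.67 and 10.73 on the young long-culture arrays, which do not overlap (0.31 ± 0.12; limma, adjusted p = 0.113). The structural beta subunits Psmb1, Psmb2, Psmb3 and Psmb4 were positive as well, from 0.08 for Psmb4 to 0.28 for Psmb2, with 0.20 for Psmb1 and 0.16 for Psmb3, without a call.

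The catalytic beta subunits varied within groups as much as between them. Psmb5, with the chymotrypsin-like site, read 9.96, 9.79 and 9.77 in young short culture, 9.60, 9.84 and 9.75 in young long culture and 9.76 and 9.94 in the serial transplant line. These values overlap, and long minus short was -0.11 with an interval from -0.34 to 0.13. Psmb6, with the caspase-like site, read 10.78, 11.08 and 10.74, then 11.04, 11.02 and 11.03, then 10.79 and 11.28. The groups overlap, serial transplant replicate 2 is the highest array, and long minus short was 0.16 (-0.14 to 0.46). Psmb7, with the trypsin-like site, read 11.06, 10.55 and 11.12, then 10.84, 11.01 and 10.96, then 10.98 and 10.89, with short-culture replicate 2 lowest. Its difference was 0.02 (-0.29 to 0.34).

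The ATPases had a median change of -0.01, with Psmc6, Psmc1 (0.26) and Psmc3 (0.07) positive and Psmc5 (-0.19), Psmc2 (-0.17) and Psmc4 (-0.09) negative. Among the 11 other subunits of the regulatory particle, 8 were positive and 3 negative, with a median of 0.15. They include the ubiquitin receptor Psmd4 (0.23), the deubiquitinating enzyme Psmd14 (0.05), and the large scaffold subunits Psmd1 (0.10) and Psmd2 (0.15). The lid subunits Psmd3 (0.20), Psmd7 (0.17) and Psmd12 (0.22) were positive, and Psmd8 (-0.10), Psmd11 (-0.03) and Psmd13 (-0.01) were negative. Psmd5, Psmd9 and Psmd10, chaperones that help assemble the base and are not part of the finished particle, gave 0.05, -0.29 and -0.01. Psmd9 read 9.11, 9.18 and 9.06 in short culture against 8.99, 8.64 and 8.85 in young long culture, without overlap, and had the lowest change of all members (-0.29 ± 0.11; limma, adjusted p = 0.128).

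**Figure D2:**
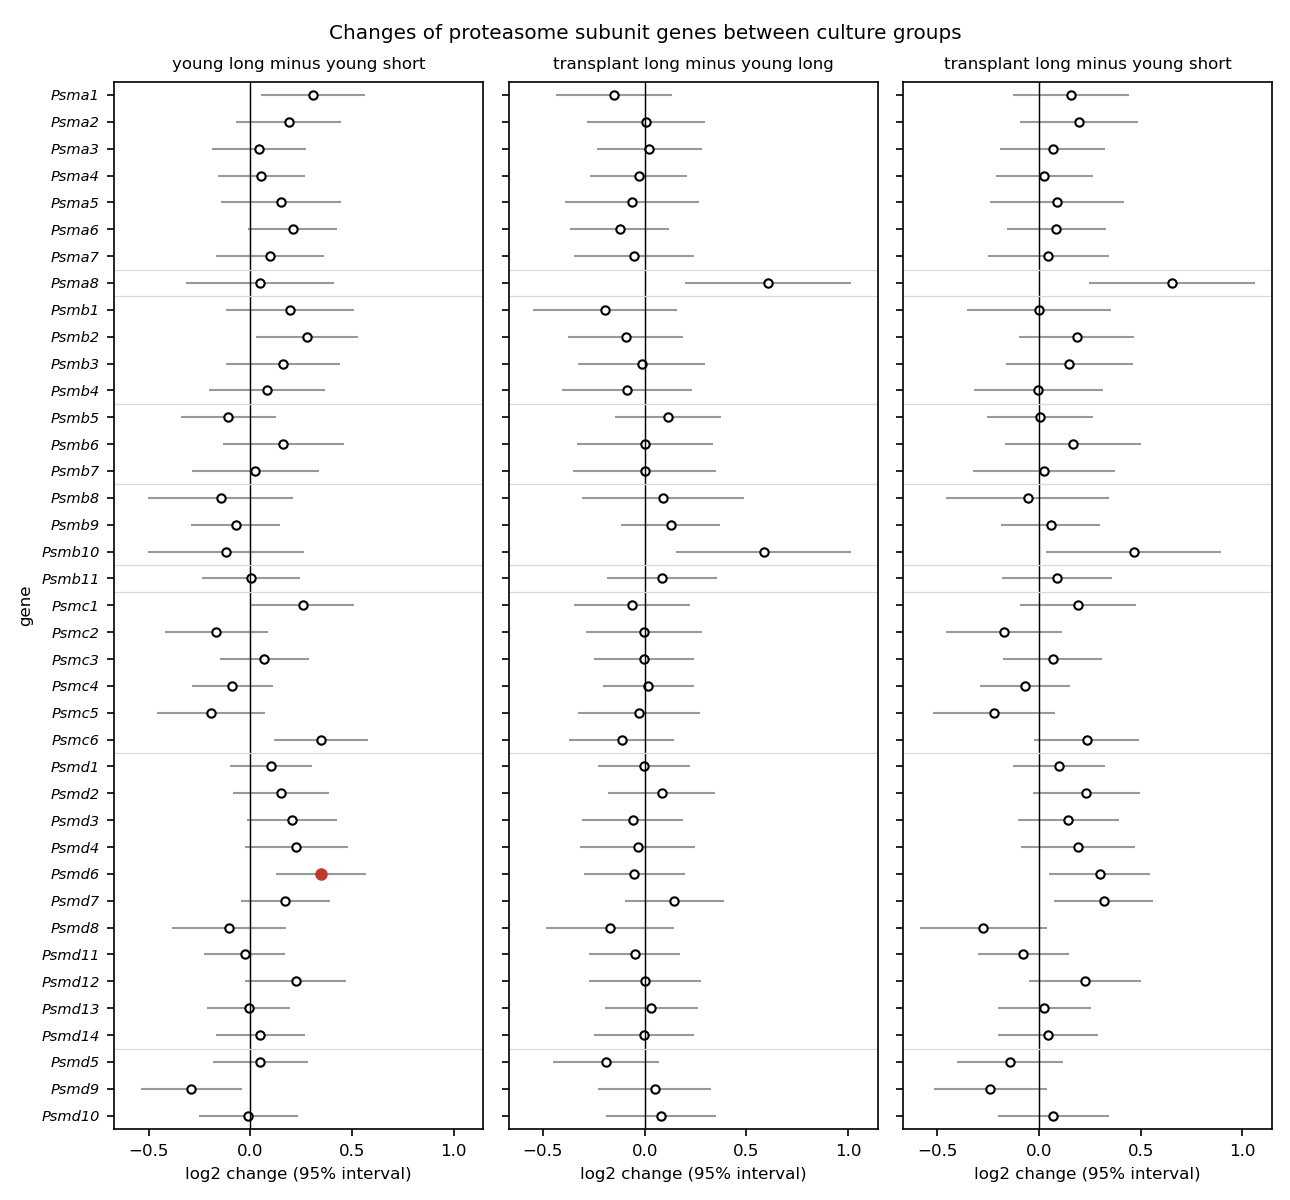
Log2 change of each of the 39 members (rows) with its 95% interval from limma in the 3 comparisons (panels); the filled red point passed an adjusted p of 0.05, open points did not. Only Psmd6 in young long minus young short is filled, while Psma8 and Psmb10 lie to the right of the others in both panels with the serial transplant line.

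The comparison of the serial transplant line with young-donor cells at the same length of culture asks what donor age and transplantation add. No member passed, as no gene did (0% of 19938; limma, Benjamini-Hochberg adjusted), though 1438 genes and 2 members, Psma8 and Psmb10, had an unadjusted p under 0.05. The members' median was -0.00, with 16 positive and 23 negative, beside a median of 0.01 and a positive share of 52.8% over all genes. Of the 10884 genes above the median signal, 4971 were positive, with a median of -0.02. The groups did not overlap for 1 member, Psma8 (higher), beside 15.1% of genes higher and 11.4% lower (15% and 14.9% of genes above the median signal). For all 34 members other than Psma8 and the immunoproteasome and thymus subunits, the interval lay within a 1.5-fold change. Against young short culture, again none of 39 passed, where limma called 10.1% of genes, 4.1% higher and 5.96% lower (8.73% of probe sets, and 6.64% higher and 7.93% lower of genes above the median signal). Unadjusted, 4 members had a p under 0.05 (Psma8, Psmb10, Psmd6 and Psmd7), as did 4918 genes. There 29 members had a positive change, as did 48.1% of all genes and 6106 of the 10884 genes above the median signal. Without overlap, 9 members lay higher and 4 lower, beside 19.8% and 20.4% of genes (28.5% and 22.3% of those above the median signal). The interval lay within a 1.5-fold change for 36 of 39 members, the others being Psma8, Psmb10 and the lid subunit Psmd8 (-0.27, interval -0.59 to 0.04). These 2 comparisons share the serial transplant arrays, and the first shares the young long-culture arrays with the comparison of culture length.

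Psma8, the germ line alpha subunit, read 8.81, 8.54 and 8.76 in young short culture, 8.45, 9.11 and 8.69 in young long culture and 9.15 and 9.56 in the serial transplant line. Both serial transplant arrays lay above all 6 young-donor arrays, though only just above young long-culture replicate 2. Core germ cell genes were high on the same arrays. Their median deviation from the 8-array mean was 0.28 and 0.33 there. It was 0.05 to 0.06 in young long culture and -0.29 to -0.01 in young short culture. For the 16 undifferentiated spermatogonia genes it was 0.07 and 0.01 on the serial transplant arrays. On young long-culture arrays it ran from -0.05 to 0.08, and on short-culture arrays from -0.31 to 0.03. Of these 16, 2 were called higher and 3 lower in the serial transplant line than in young short culture (4.1% and 5.96% of all genes). With long culture of young-donor cells, 3 were called higher and 4 lower (6.1% and 6.69% of all genes). Of the 7 core germ cell genes, 5 lay above young long culture without overlap, beside 15.1% of all genes, with none called. Above young short culture lay 6, beside 19.8% of all genes, with Tex101 (0.82) and Dnd1 (0.48) called higher, as were 4.1% of all genes. The part of germ cell genes in the values of Psma8 was not tested. The difference from young short culture was 0.65 ± 0.19 log2 (1.57-fold, interval 0.25 to 1.06; n = 2 and 3; limma, adjusted p = 0.0522) and from young long culture 0.61 ± 0.19 (interval 0.20 to 1.02; limma, adjusted p = 0.476). The first of these passed under 6 settings, with adjusted p down to 0.0326 without young long-culture replicate 2, and it was 0.457 without serial transplant replicate 2, where the difference was 0.45. Psma7, which Psma8 replaces, differed by 0.05 from young short and by -0.05 from young long culture. The within-array difference of Psma8 minus Psma7 was -0.71, -1.25 and -0.73, then -1.26, -0.61 and -0.97, then -0.31 and -0.26. It did not overlap between the serial transplant line and either young group (0.61 and 0.66 above them). An exact two-sided permutation test gave p = 0.1 against young short culture, the smallest that 2 and 3 arrays allow, and p = 0.2 against young long culture, with 0.72 for both after adjustment over 12 pairs and comparisons.

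None of the immunoproteasome subunits passed in any comparison. All 3 had a negative change with long culture of young-donor cells and a positive one between the serial transplant line and young long culture; these comparisons share the young long-culture arrays. Psmb10 read 8.87, 9.01 and 8.79, then 8.49, 9.16 and 8.66, then 9.10 and 9.61. The serial transplant arrays lay above the short-culture arrays and overlapped the young long-culture arrays, whose replicate 2 was above serial transplant replicate 1. The differences were 0.47 ± 0.20 and 0.59 ± 0.20 (limma, adjusted p = 0.188 and 0.546). Psmb8 read 6.12, 6.28 and 5.95, then 5.70, 6.32 and 5.90, then 5.87 and 6.25. All of these lie below the median of all probe sets, where a signal may be background, and the groups overlap. Psmb9 read 8.70, 8.67 and 8.78, then 8.61, 8.79 and 8.54, then 8.77 and 8.78, with the groups overlapping in every comparison. Its changes were -0.07 with long culture, and 0.13 and 0.06 for the serial transplant line against young long and young short culture. Psmb11, the beta subunit of the thymic cortex, read between 6.09 and 6.39 on all arrays, below the median of all probe sets, with changes from 0.00 to 0.09.

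**Figure D3:**
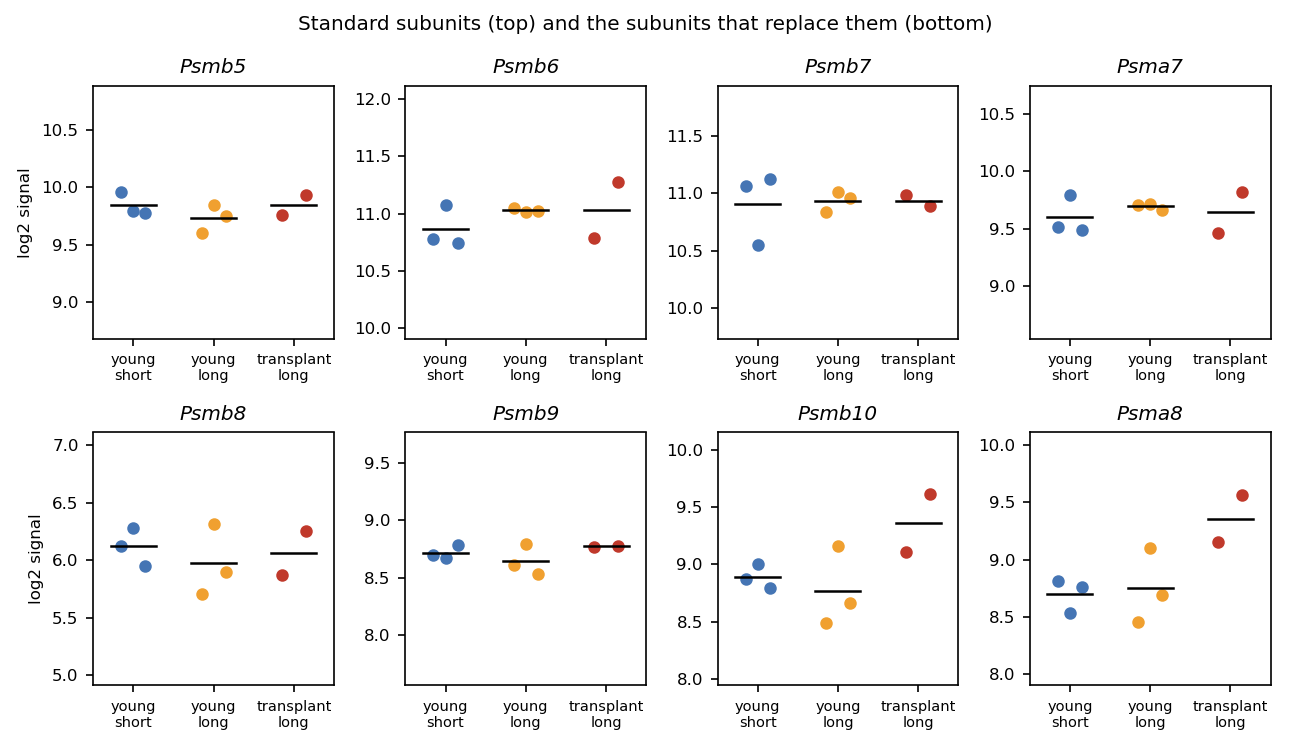
Log2 signal (vertical axis, the same span in each panel) of standard subunits (top) and of the subunits that take their place (bottom) in the 3 groups; points are arrays and bars are group means. Psma8 is the only panel in which both serial transplant arrays lie above every young-donor array; Psmb10 overlaps young long culture, and in Psmb6 and Psma7, too, serial transplant replicate 2 is the highest array.

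The RNA signals of immunoproteasome subunits and of the standard subunits they replace were compared through within-array differences. Exchange in the assembled particle was not measured. For Psmb8 minus Psmb5 the group means were -3.72, -3.76 and -3.78 in young short, young long and serial transplant arrays. For Psmb9 minus Psmb6 they were -2.15, -2.38 and -2.26, and for Psmb10 minus Psmb7 -2.02, -2.16 and -1.58. In each of these 3 pairs the groups overlapped in every comparison, and exact permutation p-values lay between 0.2 and 0.9. With so few arrays this test can give no p under 0.1, which is above the threshold used for calls. It therefore cannot decide whether a pair shifted. Psmb8 read below the median of all probe sets on every array, where a signal may be background. Its difference from Psmb5 may therefore miss a change of Psmb8. Only the change of such a difference between groups is of use, since the probes of the 2 genes need not respond equally.

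Tap1, which shares its start region with Psmb9, fell with long culture, and Psmb9 did not pass the test. The permutation test applied to the difference between them can give no p under 0.1 with these arrays. Tap1 read 8.29, 8.55 and 8.18 in young short culture, 7.40, 7.57 and 7.42 in young long culture and 7.73 and 7.53 in the serial transplant line. Every long-culture array lay below every short-culture array. Tap1 fell by 0.87 ± 0.12 log2 with long culture of young-donor cells (limma, adjusted p = 0.00249), where Psmb9 changed by -0.07 with an interval from -0.29 to 0.15. Psmb9 minus Tap1 was 0.41, 0.12 and 0.60 in short culture and 1.21, 1.22 and 1.11 in young long culture, a shift of 0.80 without overlap (exact two-sided permutation p = 0.1, the smallest possible; 0.15 adjusted over 3 comparisons). In the serial transplant arrays it was 1.04 and 1.25. This pair was chosen after its values were seen. Tap1 was lower in the serial transplant line than in young short culture (-0.71, limma, adjusted p = 0.00903). With each array left out in turn, this difference ran from -0.81 to -0.60.

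With long culture of young-donor cells, 6.69% of all genes and 8.25% of those above the median signal were called lower, and fibroblast genes fell. Of 11 measured partners of the immunoproteasome in interferon signalling and antigen presentation, 4 fell in that comparison and none rose. They were Tap1, its partner Tap2 (-0.78 ± 0.17), the class I light chain B2m (12.31, 12.94 and 12.24 in short culture, 11.66, 11.37 and 11.47 in young long culture) and the interferon gamma receptor chain Ifngr2 (-0.47 ± 0.11; limma, adjusted p between 0.00249 and 0.0244 for the 4). In the serial transplant line 5 were lower than in young short culture, beside 5.96% of all genes and 7.93% of those above the median signal. They were these 4 and the other receptor chain, Ifngr1 (-0.41 ± 0.10, limma, adjusted p = 0.0313). No call of the 5 held without serial transplant replicate 2 (adjusted p from 0.151 to 0.372). That of Tap2 also ended when young long-culture replicate 3 (0.0520) or short-culture replicate 2 (0.0667) was left out, and that of Ifngr1 without 4 further arrays (0.0539 to 0.162). In young-donor cells the calls of Tap2 and B2m were lost without young long-culture replicate 3 (0.0773 and 0.0734), those of Tap2 also without replicate 1 (0.0712) and of B2m also without replicate 2 (0.0634). That of Ifngr2 was lost without any of 5 arrays, young short-culture replicates 1 and 2 and all 3 young long-culture replicates (0.0547 to 0.0966). The interferon-responsive regulators Irf1 (-0.07) and Nlrc5 (-0.15), the loading factor Tapbp (-0.17), the peptide trimmer Erap1 (0.01) and the kinases Jak1 (0.18) and Jak2 (0.04) did not pass, nor did Ifngr1 in the young-donor comparison (-0.31; limma, adjusted p = 0.0527). Genes of leukocytes and macrophages, cells that carry immunoproteasomes constantly, also differed, with 7 of 14 lower and none higher in long culture of young donors. Their median deviation ran from 0.19 to 0.67 in short culture and from -0.33 to -0.19 in young long culture. Of the defining markers, Ptprc averaged 7.04 in short and 5.62 in long culture, Adgre1 4.54 and 4.37, and Csf1r 5.54 and 5.27. The part of these cells in the values of Psmb8, Psmb9 and Psmb10 was not tested.

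Of 5 assembly chaperones of the core particle, 2 rose with long culture of young-donor cells. Beside this, 6.1% of all genes and 9.69% of those above the median signal were called higher. Psmg1, which with Psmg2 pairs alpha subunits into a ring, read 9.98, 9.82 and 10.05 in young short culture, 10.49, 10.46 and 10.50 in young long culture and 10.36 and 10.51 in the serial transplant line. The long-culture arrays all lay above the short-culture arrays. Psmg1 rose by 0.53 ± 0.10 with long culture of young-donor cells (limma, adjusted p = 0.00838) and was 0.48 ± 0.11 higher in the serial transplant line than in short culture (adjusted p = 0.0219, or 0.0527 and 0.237 without serial transplant replicates 1 and 2). Psmg2 read 9.36, 9.06 and 9.21, then 9.94, 9.69 and 9.81, then 9.55 and 10.05. It rose by 0.60 ± 0.14 (limma, adjusted p = 0.0196) and was 0.59 ± 0.16 above short culture in the serial transplant line (limma, adjusted p = 0.0385). The first call ended when replicate 1 or 3 of young long culture (0.0803 and 0.0731) or replicate 2 of short culture (0.0514) was left out. The second was lost without any of 5 arrays, young short-culture replicates 2 and 3, young long-culture replicates 2 and 3 and serial transplant replicate 2 (0.0532 to 0.420). Psmg3 (0.15) and Psmg4 (0.00) did not pass. Pomp, the factor that matures the beta ring, read 11.71, 11.53 and 11.49 in short culture against 11.33, 10.94 and 11.34 in young long culture, without overlap (-0.37 ± 0.12; limma, adjusted p = 0.0820).

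**Figure D4:**
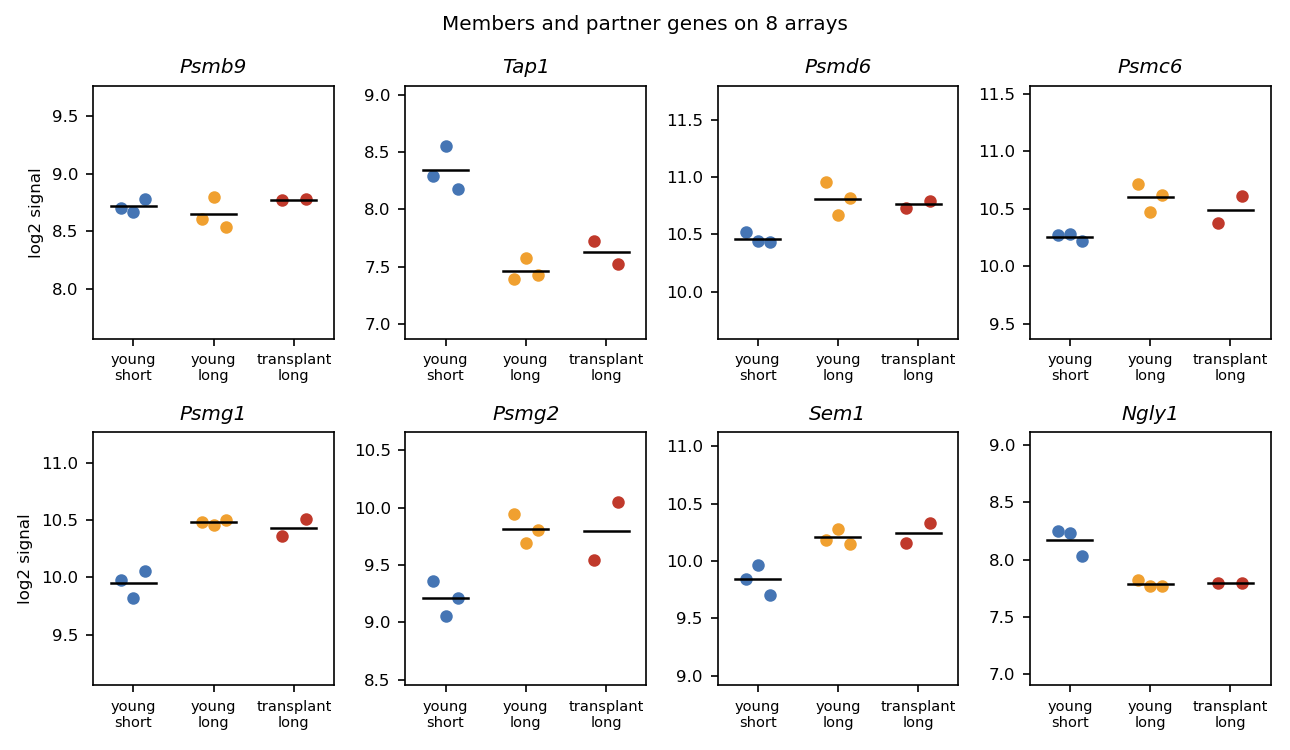
Log2 signal (vertical axis, the same span in each panel) of 4 members and neighbours (top: Psmb9, Tap1, Psmd6, Psmc6) and 4 partner genes (bottom: Psmg1, Psmg2, Sem1, Ngly1) in the 3 groups; points are arrays and bars are group means. The groups of Psmb9 overlap, Tap1 is lower in both long-culture groups, and Psmg1 and Psmg2 are higher there.

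The 4 measured parts and partners of the regulatory particle were all higher on every young long-culture array than on any short-culture array. So were 16.2% of all genes and 25.6% of genes above the median signal. Of the 4, 1 passed the test, beside 12.8% of all genes. Sem1, a small lid subunit, rose by 0.37 ± 0.10 (limma, adjusted p = 0.0453), a call that was lost when any 1 of 7 of the 8 arrays was left out in turn (0.0561 to 0.136) and after quantile normalization (0.101). The deubiquitinating enzymes Uchl5 (0.39) and Usp14 (0.16) and the adaptor Ecpas (0.24) did not pass. Among members, 10 of 39 lay higher and 1 lower without overlap, beside 16.2% and 17.8% of all genes and 25.6% and 17.8% of genes above the median signal.

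Of 5 measured genes that control proteasome transcription, 1 passed with long culture of young-donor cells, beside 12.8% of all genes. All 5 had a negative change, as did 56.8% of all genes. All 5 lie above the median signal, where 4730 of 10884 genes had a negative change. For 4 of the 5, young long culture lay lower without overlap, beside 17.8% of all genes and 17.8% of those above the median signal. Ngly1, the enzyme that strips sugars from Nfe2l1 to activate it, fell by 0.39 ± 0.10 (limma, adjusted p = 0.0275), from 8.25, 8.24 and 8.03 to 7.82, 7.77 and 7.77. It read 7.80 and 7.79 in the serial transplant line (-0.37; limma, adjusted p = 0.0556). Its call in young-donor cells was lost when any 1 of the 6 arrays compared was left out, other than young short-culture replicate 3 (0.0590 to 0.106), and after median centring (0.0512). Nfe2l1 read 10.38, 10.29 and 10.37 in short culture, 9.99, 10.14 and 10.26 in young long culture and 10.29 and 10.15 in the serial transplant line, a difference of -0.22 ± 0.10 that did not pass (limma, adjusted p = 0.204). The related factor Nfe2l2 (-0.29) and their partners Mafg (-0.34) and Mafk (-0.27) did not pass either.

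The 2 serial transplant arrays differed from each other across the members. Serial transplant replicate 2 was the higher in 36 of 39 members, or 32 of the 34 that leave out Psma8 and the immunoproteasome and thymus subunits, by a median of 0.18 log2 in each set. Over all genes it was the higher in 53.7%, by a median of 0.02, and over genes above the median signal in 59.5%, by 0.05. The members' median deviation from their 8-array means was -0.08 and 0.13 on these arrays, and it lay between -0.10 and 0.05 on the 6 others. Replicate 2 was the highest of the 8 arrays by this measure, and replicate 1 was lower than all but young short-culture replicate 3. The members' median against young short culture, 0.07 with both arrays, was 0.20 without replicate 1 and -0.03 without replicate 2. Against young long culture it was 0.06 and -0.09. Fibroblast genes also differed between the arrays, with medians of -0.23 and -0.84, and their part was not tested. Within young short culture, replicate 3 was the lowest in 24 of 39 members.

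**Figure D5:**
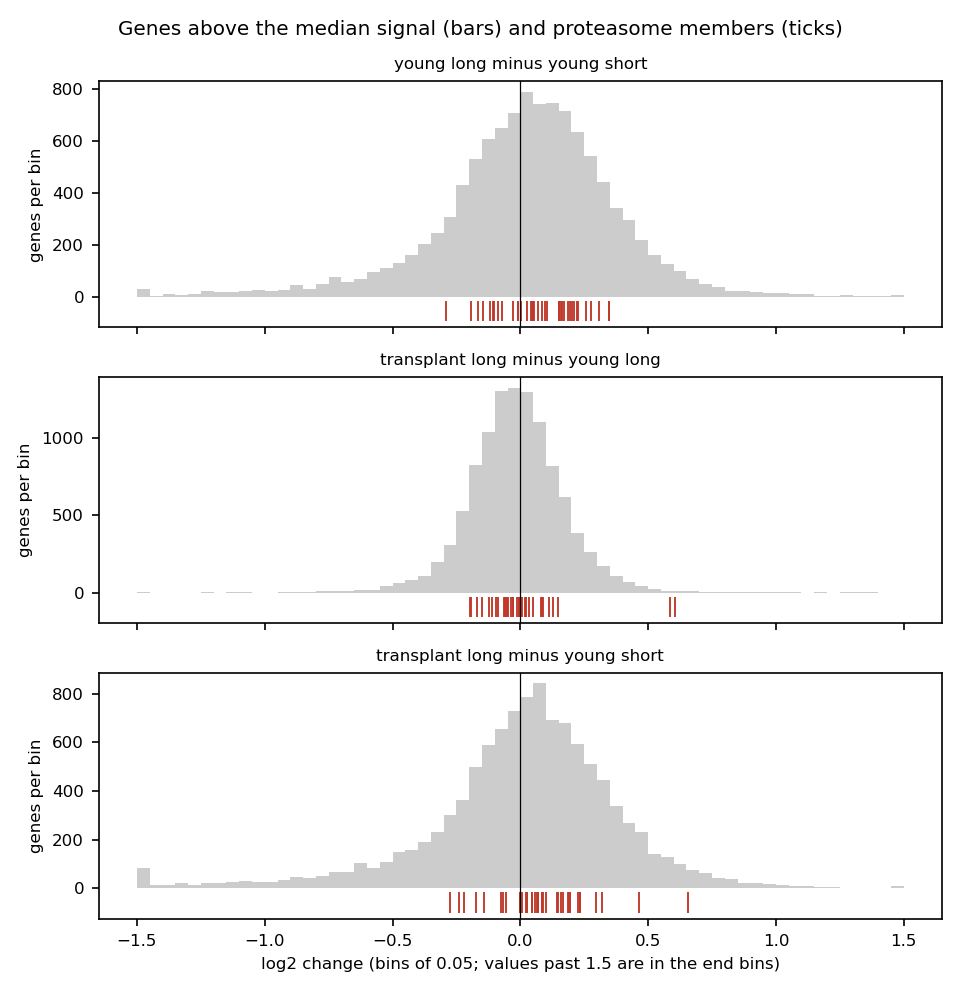
Log2 changes in the 3 comparisons (panels): grey bars count the 10884 genes above the median signal per bin of 0.05 (horizontal axis, log2 change, with values past 1.5 in the end bins; vertical axis, genes), and red ticks under them are the 39 members. The ticks lie within the central part of each distribution, apart from Psma8 and Psmb10 in the comparisons with the serial transplant line.

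The spread of the members over the 8 arrays was close to that of other genes. The highest minus the lowest array had a median of 0.47 log2 over the members and 0.46 over the 34 standard ones (at most 0.59), beside 0.49 over all genes and 0.54 over genes above the median signal. Psma8 and Psmb10 had the widest ranges of the members, 1.11 and 1.12. The median SD within groups was 0.13 for members and 0.14 for all genes. Of the members, 5 had more than 1 probe set of their symbol (Psma3 with 3, and Psma5, Psmb3, Psmc1 and Psmd2 with 2 each), and their changes differed by at most 0.11 within a gene.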

How the data were processed

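The authors deposited 1 log2 value per probe set and array; per the submitters' processing notes these are RMA signals made with Partek 6.4 and RMA. The log2 scale was read from the values (2.42 to 14.81). RMA gives no detection call. Of 35557 rows, 6614 with consecutive identifiers before the named probe sets were inferred from their numbering to be controls and dropped, leaving 28943. Of these, 21789 have 1 gene symbol, 1621 several and 5533 none. Symbols were updated by gene number from RefSeq (GRCm38.p6).

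The 8 arrays entered 1 fit of limma 3.58.1 (R 4.3.3) with a coefficient for each group, and eBayes had 5 residual and 6.28 prior degrees of freedom. The 3 differences between groups were tested two-sided and Benjamini-Hochberg adjusted over all 28943 probe sets at 0.05. The step was tested on simulated data, with independent noise for each probe set and the same spread on every array. The real arrays were less even, with array weights from 0.328 to 2.78, so that test does not cover such differences. Errors of changes are SE. Named were all members, with values by array for those past the threshold, the catalytic, immunoproteasome, testis and thymus subunits and, as examples chosen after their values were seen, Psmc6, Psma1 and Psmd9. Of partner genes, those past the threshold were named, up to 6 per list, all genes of the transcription and interferon lists, and further partners chosen after their values were seen. The members and lists were chosen with earlier results of these data known. No 2 arrays held identical values. Alternatives tried were the intensity trend, array weights, 2 groups only, quantile normalization, median centring, leaving out dim probe sets, averaging a gene's probe sets, the replicate number as a block, and each array left out.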

Additional observations from a re-analysis of the deposited data

How the results depend on the processing

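The count of members past the threshold rested on values near it, and Psmd6 was the only member to lose a call. In young long minus young short, 1 member was higher as reported, 2 with an intensity trend, 3 with array weights, 2 with probe sets above the median only, 2 after median centring, and 0 with only the 2 groups compared (adjusted p of Psmd6 0.0665), after quantile normalization and with the replicate block. It ranged from 0 to 1 with each array left out. The members added were Psmc6 and, with array weights, Psma1. In transplant long minus young short, 0 members were higher as reported, and 1, Psma8, with an intensity trend, array weights, probe sets above the median only and median centring (0 to 1 with each array left out). No member was called lower in any comparison or setting, and none of the called values changed sign.

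Probe sets called in young long minus young short numbered 3260 as reported, 5078 with array weights and 1085 to 3195 with each array left out. In transplant long minus young long there were 0, but 22 with array weights, 15 with only the 2 groups compared, 4 with the replicate block and 0 to 11 with each array left out. In transplant long minus young short there were 2528, but 1252 with only the 2 groups compared and 66 to 2817 with each array left out. The members' medians ranged from 0.0557 to 0.0866, from -0.0907 to 0.0583 and from -0.0279 to 0.198 in the 3 comparisons with each array left out. The cause of these differences was not tested.

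Whether the replicate numbers pair the arrays could not be decided. Of 7 same-numbered pairs 2 had deviations that correlated above 0.1 (-0.27 to 0.18), and 2 of 8 arrays had their highest correlation with an array of their own number. Deviations were taken from group means, so those of the 2 serial transplant arrays mirror each other. Between the young groups, same-numbered pairs gave 0.08, 0.18 and 0.10, and other pairs ran from -0.28 to 0.25. The replicate block ended the limma calls of Psmd6 (adjusted p = 0.0772) and Sem1 (0.0518) in young-donor cells. It also ended those of Psmg2 and Ifngr1 in the serial transplant line against young short culture (0.0747 and 0.0693).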

Other observations

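Ubiquitin shuttling and the other caps of the core gave no calls. Of 8 measured genes of ubiquitin supply and shuttling, none passed in any comparison. The segregase Vcp, which pulls ubiquitinated proteins out of complexes, changed by 0.07 with long culture of young-donor cells, its cofactors Nploc4 and Ufd1 by 0.13 and 0.11, the shuttle Rad23b by 0.15 and the shuttle Ubqln1 by -0.20.

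Of the 5 genes of alternative activators and of the inhibitor Psmf1, none passed either. Psme1 and Psme2, which form the interferon-induced cap, changed by 0.10 and 0.02 with long culture. In the serial transplant line Psme2 read 10.55 and 11.03, against 10.49 to 10.68 in young long culture. Psme4, an activator known for its role in spermatogenesis, read 10.41, 10.20 and 10.24 in young short culture, 10.61, 10.46 and 10.46 in young long culture and 10.22 and 10.31 in the serial transplant line. The young long-culture arrays lay above all others, with 0.23 ± 0.10 against short culture (limma, adjusted p = 0.179).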
